A study of Mus musculus with 12 samples.

Results

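The comparison set the ASXL1 ChIP-seq peaks of 10RA against those of 1-590 in mouse c-Kit+ bone marrow cells. Its members were the distinct peak intervals of both lists on chromosomes 1 to 19, X and Y, 4584 with 10RA and 8370 with 1-590. Together they made up 12954 of the 159554 peaks that the 12 lists of the study held on those chromosomes. A peak was called shared where it overlapped a peak of the other list by 1 base or more, and private where it did not. The series profiles chromatin binding of ASXL1 and of its partner BAP1 for truncated ASXL1 forms with different condensation. The 10RA cells carried a retrovirus for BAP1 and one for HA-tagged ASXL1 (1-590) 10RA, a form of residues 1 to 590 that the labels call condensation-impaired. The 1-590 cells carried the BAP1 retrovirus and one for HA-tagged ASXL1 (1-590). In both groups c-Kit+ cells from bone marrow, labelled as haematopoietic stem and progenitor cells with a mock genotype, were prestimulated overnight and then transduced, and both libraries belonged to 1 labelled batch. Neither group lacked the added BAP1, and the labels describe no removal of the cells' own Asxl1 or Bap1. The labels name no strain, age or number of animals. The antibody is given as anti-ASXL1 in the sample descriptions and as anti-HA in the protocols, so a peak is called an ASXL1 peak here by the name of its library. Each condition had 1 library. No difference between 10RA and 1-590 therefore has a replicate check or a test, and the intervals given are 95% intervals for counting error only.

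ASXL1 is a chromatin cofactor of BAP1, the deubiquitinase that removes a ubiquitin mark from histone H2A, the mark (H2AK119ub) laid down by Polycomb repressive complex 1. Its N-terminal region binds and activates BAP1, and truncating ASXL1 mutations are frequent in clonal haematopoiesis and myeloid malignancies. In ChIP-seq, chromatin bound by a protein is recovered with an antibody and sequenced, and a peak is an interval where fragments pile up above the local background. The summit is the base of a peak with most fragments over it. Kdm6a and Kmt2a, at which the lists differed, encode UTX, a demethylase of lysine 27 of histone H3, and MLL1, a methyltransferase of lysine 4 of histone H3.

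The sequences below are of GRCm39 and belong to the peaks on which the comparison turned. The first pair shows the exon edges near which 1 Kdm6a peak of 10RA began and another ended, with exon bases in capitals. The stretch at exon 17, chrX:18120183-18120362 on the plus strand, lies at the left edge of a shared peak. The stretch at exon 16, chrX:18117222-18117401 on the plus strand, lies at the right edge of a peak listed with 10RA and not with 1-590.
Kdm6a exon 17: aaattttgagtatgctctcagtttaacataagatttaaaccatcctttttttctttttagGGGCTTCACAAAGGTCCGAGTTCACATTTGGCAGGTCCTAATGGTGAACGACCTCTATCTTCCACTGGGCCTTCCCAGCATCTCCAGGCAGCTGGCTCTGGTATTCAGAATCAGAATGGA
Kdm6a exon 16: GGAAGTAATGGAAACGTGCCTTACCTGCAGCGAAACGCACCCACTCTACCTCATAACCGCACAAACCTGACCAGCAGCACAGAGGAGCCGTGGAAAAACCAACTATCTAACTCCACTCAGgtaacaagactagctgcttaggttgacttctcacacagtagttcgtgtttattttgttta

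The next pair are promoter-region sequences. The first coding bases of Kmt2a, chr9:44792423-44792572 on the minus strand with the start codon in capitals, lie in the strongest promoter peak listed with 10RA and not with 1-590. The bases before the first exon of Pgk1, chrX:105230506-105230705 on the plus strand with CpG dinucleotides in capitals, lie in the strongest promoter peak of both lists.
Kmt2a: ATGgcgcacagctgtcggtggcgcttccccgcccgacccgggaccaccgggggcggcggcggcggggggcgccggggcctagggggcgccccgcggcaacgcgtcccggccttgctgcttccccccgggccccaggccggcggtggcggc
Pgk1: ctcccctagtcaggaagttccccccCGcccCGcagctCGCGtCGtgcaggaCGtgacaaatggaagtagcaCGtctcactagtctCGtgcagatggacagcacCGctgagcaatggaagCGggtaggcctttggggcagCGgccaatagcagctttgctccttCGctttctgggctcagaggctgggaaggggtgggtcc

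The last pairs show private peaks in repeated sequence whose letters recur in the other list. The strongest private 10RA peak, chr14:3053768-3053975, is set beside the part of a shared peak that resembles it most, chr9:3007105-3007312, both on the plus strand. Capitals mark bases inside words of 16 bases that both stretches hold.
Chromosome 14, private to 10RA: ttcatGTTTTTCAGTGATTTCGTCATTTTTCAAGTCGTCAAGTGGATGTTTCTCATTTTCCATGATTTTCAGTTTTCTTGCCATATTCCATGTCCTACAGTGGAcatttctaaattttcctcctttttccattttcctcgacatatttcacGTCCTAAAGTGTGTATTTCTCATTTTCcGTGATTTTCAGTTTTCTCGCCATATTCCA
Chromosome 9, shared: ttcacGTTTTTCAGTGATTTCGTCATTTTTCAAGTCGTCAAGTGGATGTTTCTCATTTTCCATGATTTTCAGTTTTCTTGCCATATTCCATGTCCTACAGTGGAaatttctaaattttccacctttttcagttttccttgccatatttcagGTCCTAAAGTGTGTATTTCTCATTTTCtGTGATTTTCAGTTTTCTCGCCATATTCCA
The strongest private 1-590 peak, chr10:3063731-3063919, is set beside a private 10RA peak of the same repeat, chr10:3062768-3062955, both on the plus strand. Capitals mark bases inside words of 32 bases that both hold.
Chromosome 10, private to 10RA: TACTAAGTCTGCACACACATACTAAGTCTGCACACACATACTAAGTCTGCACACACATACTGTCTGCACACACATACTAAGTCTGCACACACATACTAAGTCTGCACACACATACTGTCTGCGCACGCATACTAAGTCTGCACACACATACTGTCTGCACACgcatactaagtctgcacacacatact
Chromosome 10, private to 1-590: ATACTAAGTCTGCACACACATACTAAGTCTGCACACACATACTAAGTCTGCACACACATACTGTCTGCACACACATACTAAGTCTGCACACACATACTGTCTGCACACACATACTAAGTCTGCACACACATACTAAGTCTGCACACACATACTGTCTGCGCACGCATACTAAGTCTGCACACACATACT

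The lists differed in depth. The genome background recovered from the deposited fold and p values was 3.04 fragments per base with 10RA and 4.99 with 1-590, a ratio of 0.608. At that background a summit needed 10 fragments with 10RA and 13 with 1-590 to reach the p of 0.001 at which the lists end. Most peaks in both stood close to that limit: the median summit held 12 fragments with 10RA and 16 with 1-590. A q of 0.05 or less, the share of false peaks that the peak caller estimates within a list, was reached by 487 peaks (10.6%) with 10RA and 1415 (16.9%) with 1-590. The last peaks of the lists had q values of 51.4% with 10RA and 36.2% with 1-590. As listed, the number of 10RA peaks divided by that of 1-590 peaks was 0.548. When the 1-590 summits and backgrounds were scaled to the 10RA depth and their p recomputed, 4671 of the 8370 peaks still reached p of 0.001, and the quotient was 0.981.

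The strongest ASXL1 peaks lay at the same places with 10RA and 1-590, and nearly all weak peaks lay at different places. Of the 4584 peaks with 10RA, 227 met a 1-590 peak, 4.95% (Wilson interval 4.36 to 5.62). Of the 8370 peaks with 1-590, 219 met a 10RA peak, 2.62% (2.30 to 2.98). Peaks of these lengths placed anywhere on the chromosomes compared would on average be met at 0.148% with 10RA and 0.0809% with 1-590. Ranked by the -log10 p of their own list, 92.0% of the first 50 peaks with 10RA (81.2 to 96.8) and 90.0% of the first 50 with 1-590 (78.6 to 95.7) had a counterpart anywhere in the other list. Over ranks 201 to 500 the shares were 11.3% with 10RA (8.22 to 15.4) and 13.0% with 1-590 (9.66 to 17.3). From rank 4001 on they were 0.685% with 10RA (0.267 to 1.75) and 0.229% with 1-590 (0.124 to 0.421).

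**Figure D1:**
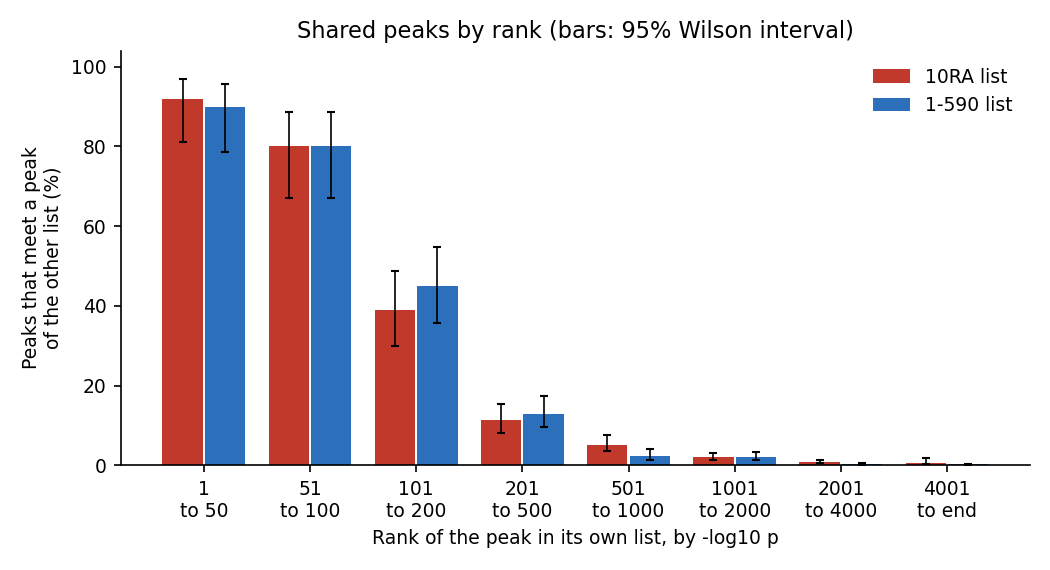
Share of peaks (percent, y axis) that met a peak of the other list, by rank in their own list (x axis), for the 10RA list and the 1-590 list; bars carry 95% Wilson intervals. About 9 in 10 of the first 50 peaks were shared in both lists, and under 1% beyond rank 4001.

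Cutting both lists to the same number of peaks left shares near 5% in both. Among the 4584 strongest peaks of each list by -log10 p, 4.76% with 10RA (4.18 to 5.41) and 4.58% with 1-590 (4.01 to 5.23) were shared, and ranked by fold the shares were 3.99% and 3.88%. Of the 100 strongest peaks of each list set against each other, 68 with 10RA and 69 with 1-590 were shared. Among the 1000 strongest the shares were 16.4% with 10RA and 15.9% with 1-590. Against the 1-590 list scaled to the 10RA depth, 4.73% of 10RA peaks were shared (4.16 to 5.39), and 4.47% of the 1-590 peaks that remained (3.92 to 5.11). When each list was held to peaks of q up to 0.05, 147 of 487 peaks with 10RA (30.2%) and 144 of 1415 with 1-590 (10.2%) were shared. Few private peaks lay just beyond a partner: 1.26% with 10RA (0.971 to 1.64) and 0.957% with 1-590 (0.767 to 1.19) lay within 1 kb of a peak of the other list, where 0.700% and 0.381% of the genome lies. The median distance from a private peak to the nearest peak of the other list was 106 kb with 10RA and 191 kb with 1-590.

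Most shared peaks recurred in other libraries, most often in those of BAP1. Of the shared 10RA peaks, 187 of 227 (82.4%, 76.9 to 86.8) met a peak in at least 1 of the 10 other lists, which are 2 of BAP1 ChIP-seq and 8 of H2AK119ub CUT&RUN, and 17 met a peak in all 10. Of the shared 1-590 peaks 178 of 219 did (81.3%, 75.6 to 85.9). By list, 70.0% of shared 10RA peaks met a BAP1 peak of 10RA and 50.2% a BAP1 peak of 1-590. Single H2AK119ub lists met 16.3% to 35.2% of them. Lists of vector controls were among these, at 16.3% for the control of the 1-590 set and 34.4% for that of the 1-1067 set. Private peaks met a peak in at least 1 of the 10 other lists at 2.57% with 10RA (2.14 to 3.08) and 5.23% with 1-590 (4.76 to 5.73). Private 10RA peaks met the BAP1 list of 10RA at 0.711%, where random placement gives 0.0948%. They met the H2AK119ub list of 25RA at 0.666%, where placement gives 0.714%, and that of 10RA at 0.459% against 0.597%. Private 1-590 peaks met the same BAP1 list of 10RA at 1.37%, where placement gives 0.0980%. They met the BAP1 list of 1-590 at 0.540%, where placement gives 0.0778%. Their shares were 1.42% against 0.736% for the H2AK119ub list of 25RA and 1.35% against 0.795% for that of 1-590. Shared peaks were also often in repeated sequence. The median 32-base word of the peak occurred more than once in the genome for 45.4% of shared 10RA peaks (39.0 to 51.9) and 49.3% of shared 1-590 peaks (42.8 to 55.9). Among private peaks that share was 6.84% with 10RA (6.13 to 7.63) and 9.39% with 1-590 (8.77 to 10.0). With peaks listed in any other library left out, 40 peaks of each list were shared, 0.933% with 10RA (0.686 to 1.27) and 0.515% with 1-590 (0.378 to 0.701).

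**Figure D2:**
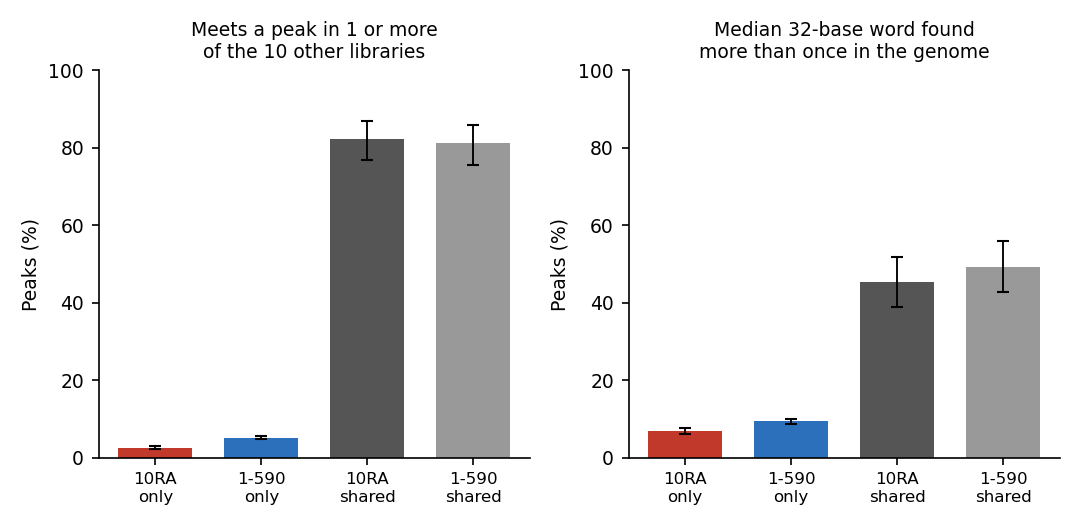
Share of peaks (percent, y axes) that met a peak in at least 1 of the 10 other libraries (left) and whose median 32-base word occurs more than once in the genome (right), for private and shared peaks of the 10RA and 1-590 lists; bars carry 95% Wilson intervals. Shared peaks stood at 82.4% (10RA) and 81.3% (1-590) on the left, against 2.57% and 5.23% for private peaks.

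Shared peaks also crowded into few places. The 227 shared 10RA peaks fell in 69 of 2734 bins of 1 Mb, and 11 of these bins, each with 7 or more, held 132 of them. The same 11 bins held 37 private peaks with 10RA and 131 with 1-590. The fullest bin, at 13 to 14 Mb of chromosome 17, held 19 shared 10RA peaks and contains Tcp10b and Tcp10c, Smok2a and Smok2b, and Mas1. A bin at 146 to 147 Mb of chromosome 4 held 18 among genes of the Zfp zinc finger family, and its neighbour at 147 to 148 Mb held 14. A bin at 3 to 4 Mb of chromosome 11, which contains Sfi1, held 17, and a bin at 43 to 44 Mb of chromosome 14 held 16. All 7 peaks that 10RA had on chromosome Y were shared.

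Of the shared 10RA peaks, 4 lay in single-copy sequence, had a q of 0.05 or less in both lists and met no peak in the other 10 libraries. The peak in exon 17 of Kdm6a stood far above the other 3. Its summit held 289 fragments with 10RA (Poisson interval 257 to 324) and 273 with 1-590 (242 to 307), over local backgrounds of 12.6 with 10RA and 13.3 with 1-590. It was the second strongest peak of both lists. The other 3 had 17 to 24 fragments with 10RA and 22 to 27 with 1-590. They lay at the promoters of Nit1 and Pfdn2 (chr1:171171998-171172314), between genes nearest to Tcp10c (chr17:13550340-13550596) and between genes nearest to Xkr4 (chr1:3051041-3051557). Of all 40 shared 10RA peaks without a counterpart in another library, 23 were in single-copy sequence.

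The exon 17 and exon 16 peaks of Kdm6a lay within their exons, each with 1 end near an exon edge and the other end well inside. In 10RA the peak at exon 17, chrX:18120247-18120772, began 4 bases inside the exon, whose bases run from 18120243 to 18121021, and ended 249 bases before its end. In 1-590 the peak, chrX:18120250-18120778, began 7 bases inside the exon and ended 243 bases before its end. The exon edge is the change to capitals in the first sequence above. The summits of the pair were 2 bases apart. A second peak, chrX:18117130-18117336 in exon 16, was listed with 10RA and not with 1-590. Its summit held 78 fragments (61.7 to 97.3) over a background of 12.4, it ranked 22 by -log10 p in the 10RA list, and it began 184 bases inside exon 16 and ended 5 bases before its end at 18117341. The intron between these exons, 2901 bases long, held no listed peak in either library. Scaled to the depth of 1-590, the exon 16 summit would hold 128 fragments where 36 were needed. Scaling up to a deeper library keeps any listed peak above its limit, so this value does not test the absence. Another peak, chrX:18029293-18029523 with 51.5% of its bases in exon 1, 112 bases past the end of that exon and with its summit 528 bases from the transcription start site (TSS), was listed with 1-590 and not with 10RA. Its summit held 31 fragments (21.1 to 44.0), which scale to 18.9 at the depth of 10RA. None of the 3 places met a peak in any of the other 10 libraries.

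Kmt2a had a peak with 10RA and none with 1-590. The interval, chr9:44792167-44792573, held 46 fragments at its summit (33.7 to 61.4) over a background of 4.001, with a fold of 9.40. It would hold 75.6 at the depth of 1-590, where 16 were needed. As at Kdm6a, scaling up to a deeper library cannot take a listed peak below its limit. By -log10 p the Kmt2a peak was the strongest promoter peak private to either list, with its summit 364 bases from the TSS. Kmt2a lies on the minus strand, and the coding part of its first exon runs from 44792147 to 44792572. The peak reached 1 base past the first coding base and stopped 20 bases short of the other end of the exon. The sequence there was rich in G and C, 84.0% over the 150 bases shown above, which hold 23 CpG. The nearest 1-590 peak was 81332 bases away. The interval also met H2AK119ub peaks in the 10RA and 1-590 libraries of the mark.

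Pgk1, which encodes the glycolytic enzyme phosphoglycerate kinase and whose promoter is widely used in expression vectors, had the strongest promoter peak of both lists by -log10 p. Its summit held 203 fragments with 10RA (176 to 233) and 204 with 1-590 (177 to 234), over local backgrounds of 9.36 with 10RA and 11.8 with 1-590. The 10RA interval was chrX:105230342-105230828 and the 1-590 interval chrX:105230336-105230823, and 25.3% of the 10RA interval and 24.2% of the 1-590 interval lay in the first exon. The 200 bases before that exon, shown above, hold 12 CpG. The peak also met peaks in the H2AK119ub libraries of 10RA, 25RA, 1-590 and 36EQ.

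The other leading peaks of the lists also had peaks in most of the 10 other libraries. The strongest of both lists, chr2:98492714-98493103 with 10RA and chr2:98492712-98493101 with 1-590, lay between protein-coding genes and held 678 fragments with 10RA (628 to 731) and 693 with 1-590 (642 to 747). Its local backgrounds were 68.6 with 10RA and 75.3 with 1-590, and it met a peak in 9 of the other libraries. At Lars2, the mitochondrial leucyl-tRNA synthetase gene, the peak in its exon 21 held 182 fragments with 10RA (157 to 210) and 200 with 1-590 (173 to 230) and met a peak in all 10. The interval between genes at chr9:3006753-3007317, whose words have a median of 16 copies in the genome, held 162 fragments with 10RA (138 to 189) and 225 with 1-590 (197 to 256.4). In an intron of Sfi1, which encodes a centrosomal protein, a peak at chr11:3122395-3122772 held 89 fragments with 10RA and 207 with 1-590 and met a peak in all 10. Near Gm8797, chr3:5925406-5925864 held 136 fragments with 10RA and 169 with 1-590 and also met a peak in all 10. A peak at chr9:35216521-35216849, inside the long non-coding RNA gene Gm33838 and nearest to Rpusd4, held 151 fragments with 10RA and 157 with 1-590. The second peak near Lrrc4c, chr2:98496910-98497648, held 362 fragments with 10RA and 402 with 1-590.

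At shared peaks the fragment pileups of both libraries moved together and mostly scaled with depth. Over the 227 shared 10RA peaks the median ratio of the 10RA to the 1-590 pileup was 0.644 (quartiles 0.556 and 0.761), close to the background ratio of 0.608. As a description over peaks that share both libraries, Pearson's r of the log2 pileups was 0.94 and Spearman's rho was 0.89. Divided by the background ratio, the pileup ratio was above 1.5 at 20 peaks and below its inverse at 14. Counting intervals of both pileups stood clear of each other after scaling at 10 peaks higher with 10RA and 9 lower. The higher ones held 6 of the 8 strongest 10RA peaks, with scaled ratios of 1.74 at Kdm6a, 1.64 at Pgk1, 1.61 and 1.48 at the pair near Lrrc4c, 1.58 near Rpusd4 and 1.496 at Lars2. Unscaled, the pileups at these were close to equal in 10RA and 1-590. The scaling used the genome backgrounds only, and the folds over local background differed less. With 10RA and 1-590 these folds were 21.4 and 19.1 at Kdm6a, 19.7 and 16.05 at Pgk1, and 24.9 and 20.1 at Lars2. They were 13.8 and 11.4 near Rpusd4, and 9.75 and 9.09, then 5.20 and 5.26, at the pair near Lrrc4c. The scaled ratios are thus not an excess over local background. The highest scaled ratio, 2.72, was at chrX:53912013-53913098 between genes, with 53 fragments with 10RA and 32 with 1-590, and met a peak in 8 of the other libraries. Next came an intron of Camk2b, a calcium/calmodulin-dependent kinase subunit gene, at chr11:5956322-5956557, with 58 fragments with 10RA and 46 with 1-590, a ratio of 2.07, in sequence with a median of 15 copies. Among the 9 lower ones, 4 were on chromosome Y and 3 on X, and 7 had summits over 300 bases apart, so that the pileups compared there were at different bases. The pairs on Y reused the same 1-590 peaks, chrY:90748789-90751859 with 111 fragments and chrY:90822676-90824211 with 105. The 9 pairs are thus not separate differences.

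**Figure D3:**
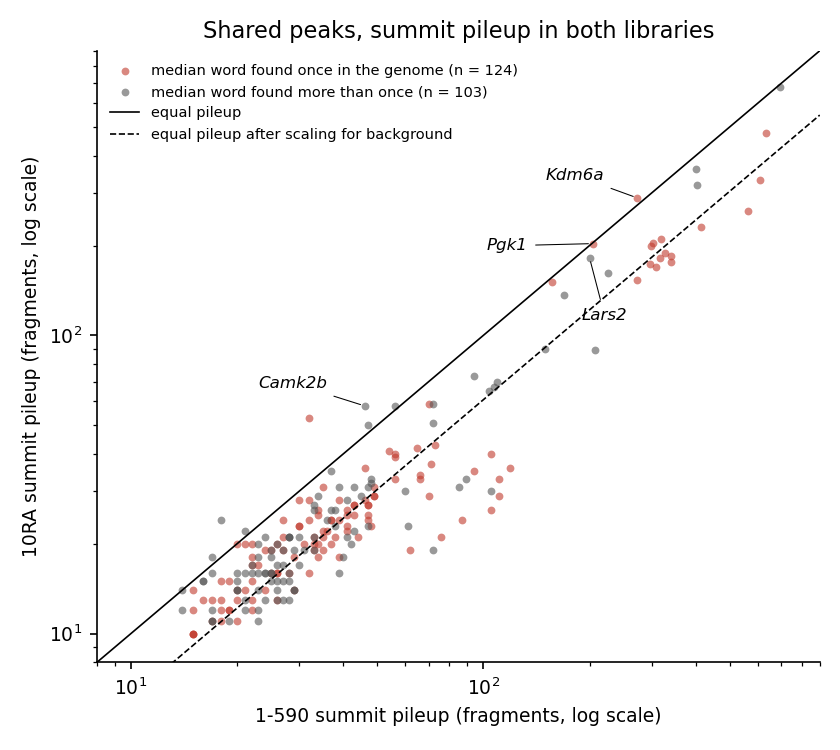
Summit pileup (fragments, log scale) with 10RA (y axis) and 1-590 (x axis) at the 227 shared 10RA peaks, split by whether the median 32-base word occurs once in the genome; the solid line marks equal pileups and the dashed line pileups equal after scaling by the background ratio of 0.608. Most points follow the dashed line, while Kdm6a, Pgk1, Lars2 and Camk2b lie near or above the solid one.

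Private peaks were spread over exons, introns and intergenic sequence nearly as the bases of the genome are, and were fewer at promoters. A promoter was any base within 2 kb of the TSS of the canonical transcript, over 21757 protein-coding genes. This class covers 3.09% of bases. It contained 1.74% of private 10RA summits (1.40 to 2.18) and 2.47% of private 1-590 summits (2.15 to 2.83). Among shared 10RA summits 15 of 227 lay at promoters, 6.61% (4.05 to 10.6). Exons of any protein-coding transcript outside promoters, 3.88% of the genome, held 3.60% of private 10RA summits (3.09 to 4.20), 4.51% of private 1-590 summits (4.09 to 4.99) and 4.85% of shared ones (2.73 to 8.47). Introns, 34.4% of the genome, held 33.6% of private 10RA summits (32.2 to 35.0), 31.9% of private 1-590 summits (30.9 to 32.9) and 20.7% of shared ones (15.9 to 26.4). The rest lay between protein-coding genes, which is 58.6% of the genome: 61.1% of private 10RA summits, 61.2% of private 1-590 summits and 67.8% of shared ones (61.5 to 73.6). In single-copy sequence alone, the shared 10RA peaks lay in introns at 26.8% (19.5 to 35.7) and between genes at 58.9% (49.7 to 67.6). Single-copy refers to words of the assembled genome. The median local background of these peaks was 2.04 times the genome background with 10RA, and 2.08 times for such peaks with 1-590. They include a peak in the rRNA gene Rn18s-rs5, chr17:40158404-40158872, over a background of 137 fragments with 10RA.

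The promoter share of private 10RA summits was below that of private 1-590 summits in most settings, but not at q of 0.05 or less. The intervals of 10RA and 1-590 overlapped as listed and in every setting. With both lists cut to 4584 peaks the share was 1.74% with 10RA (1.39 to 2.17) and 2.45% with 1-590 (2.03 to 2.95). Among single-copy peaks it was 1.79% with 10RA and 2.56% with 1-590. Among peaks with q of 0.05 or less it was 3.24% with 10RA (1.82 to 5.70) and 2.99% with 1-590 (2.19 to 4.08), so the order turned round. That setting held 11 promoter summits with 10RA and 38 with 1-590.

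**Figure D4:**
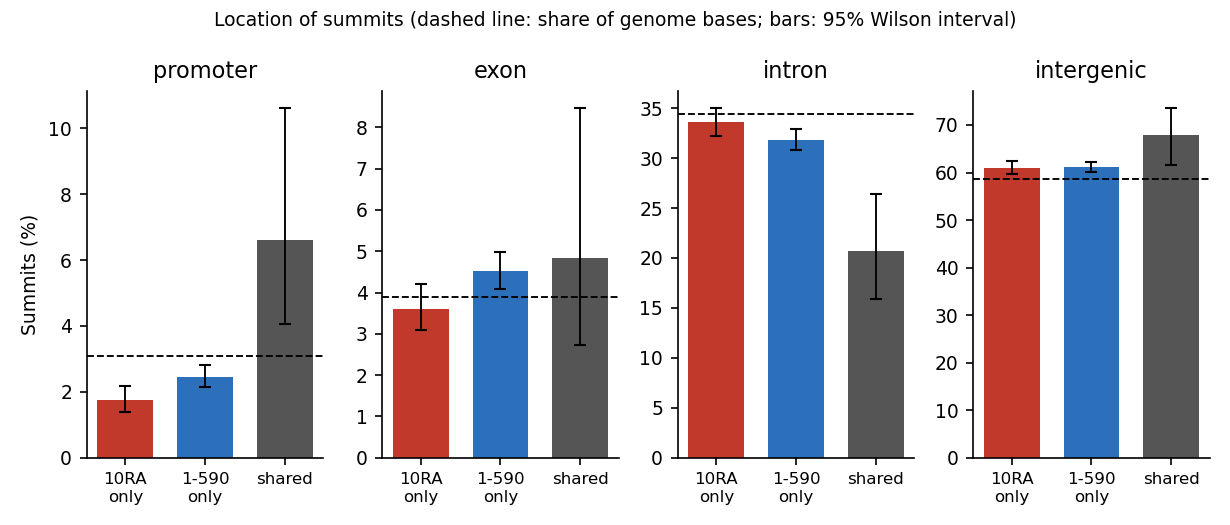
Share of summits (percent, y axes) at promoters, in exons, in introns and between protein-coding genes, for private 10RA, private 1-590 and shared 10RA peaks; bars carry 95% Wilson intervals and dashed lines mark the share of genome bases. Private peaks of both lists stand near the dashed lines except at promoters, where they are below (1.74% and 2.47%), and shared peaks are above the line at promoters (6.61%) and below it in introns (20.7%).

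By distance, 13.4% of private 10RA summits (12.5 to 14.5) and 11.6% of private 1-590 summits (10.96 to 12.4) lay beyond 500 kb of any such TSS, against 11.95% of genome bases. Only 3.52% of shared 10RA summits did (1.80 to 6.80). Between 1 and 5 kb of a TSS the shares were 5.37% of private 10RA summits (4.74 to 6.08), 6.26% of private 1-590 summits (5.75 to 6.80) and 11.9% of shared 10RA summits (8.30 to 16.8), against 5.88% of bases.

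Base composition differed between the private classes. In windows reaching 150 bases to each side of the summit the median GC content was 43.2% for private 10RA peaks (quartiles 38.5 and 47.5) and 47.2% for private 1-590 peaks (43.2 and 50.8), against 41.5% in all such windows of the genome. With both lists cut to 4584 peaks the medians were 43.2% and 47.5%. At least 5 CpG lay in 13.8% of the private 10RA windows (12.8 to 14.8) and 19.8% of the private 1-590 windows (18.97 to 20.7), against 14.4% of genome windows. The windows were searched on both strands for words of the FOXK, YY1, ETS, GATA and E-box motifs. FOXK and YY1 factors are known partners of the BAP1 complex. The FOXK word GTAAACA was in 4.48% of private 10RA windows (3.90 to 5.13) and 3.72% of private 1-590 windows (3.33 to 4.15), against 4.51% of genome windows. The YY1 word AAGATGGC was in 2.89% of private 10RA windows (2.43 to 3.43) and 3.9995% of private 1-590 windows (3.60 to 4.45), against 2.69%. In single-copy sequence it was in 2.33% of private 10RA windows (1.91 to 2.84) and 2.81% of private 1-590 windows (2.46 to 3.22), so the share above that of the genome with 1-590 did not hold there. The GATA word AGATAA was in 18.4% of private 10RA windows (17.3 to 19.6) and 14.1% of private 1-590 windows (13.4 to 14.9), against 19.4%. The ETS word CCGGAAG was in 0.780% of private 10RA windows and 1.28% of private 1-590 windows, against 0.840%. The E-box word CACGTG was in 2.94% of private 10RA windows and 3.23% of private 1-590 windows, against 2.89%. In single-copy sequence the GATA word was in 18.5% of private 10RA windows (17.3 to 19.7) and 14.2% of private 1-590 windows (13.4 to 14.97), and the median GC contents were 43.2% and 47.2%. The part of base composition in these shares was not tested. Each word is a description of the letters, not a binding site.

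Many of the strongest private peaks lay in repeated sequence. Of the 8 strongest of each list, all but Kdm6a, Kmt2a and the Sfi1 intron with 10RA, and all but those near Ly6c2 and in Sp140l2 with 1-590, were in sequence whose median word occurs more than once. The chromosome 14 peak private to 10RA held 118 fragments (97.7 to 141), and 74.5% of its bases lie in 16-base words of the shared chromosome 9 peak. It also met peaks in both BAP1 libraries. The chromosome 10 peak private to 10RA held 35 fragments (24.4 to 48.7) and the one private to 1-590 held 64 (49.3 to 81.7). They lie 776 bases apart in a tandem repeat with a unit of 19 bases, and every base of the 1-590 peak lies in a 32-base word of the 10RA peak. Further private 10RA peaks were near Potefam3b (chr8:21060463-21060658, 23 fragments, median of 9 copies), near Cyp2c29 (chr19:39343182-39343433, 22 fragments, 50 copies), in an intron of Sfi1 (chr11:3136843-3137010, 165 fragments over a background of 91.4) and in an intron of Sp140l2 (chr1:85092812-85093024, 20 fragments, 3 copies).

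Several private 1-590 peaks lay near the same genes or gene families. They were near Alkbh8 (chr9:3001263-3001520, 55 fragments, 79 copies, 93 bases from a 10RA peak), near Cyp2c29 (chr19:39248381-39248608, 41 fragments, 12 copies), near Potefam3a (chr8:20119558-20119805, 40 fragments, 14 copies) and near Tmem125 (chr4:118405731-118405907, 47 fragments, 6 copies). In Sp140l2 the 1-590 peak, chr1:85091888-85092088 with 31 fragments, stood 724 bases from the 10RA peak of that gene. Near Zfp992, chr4:146443195-146443384 held 31 fragments in sequence with a median of 5 copies. The strongest in single-copy sequence lay between genes 26419 bases from the TSS of Ly6c2, which encodes a myeloid surface antigen, at chr15:74957359-74957697. It held 38 fragments (26.9 to 52.2) over a background of 5.41 and would hold 23.1 at the depth of 10RA, where 10 were needed. Scaled in this way, all 16 of these private summits stood above the number needed in the other library. For those with 10RA this follows from scaling up to a deeper library. Those with 1-590 were picked as the strongest by -log10 p, so the count does not test whether depth accounts for the absences.

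**Figure D5:**
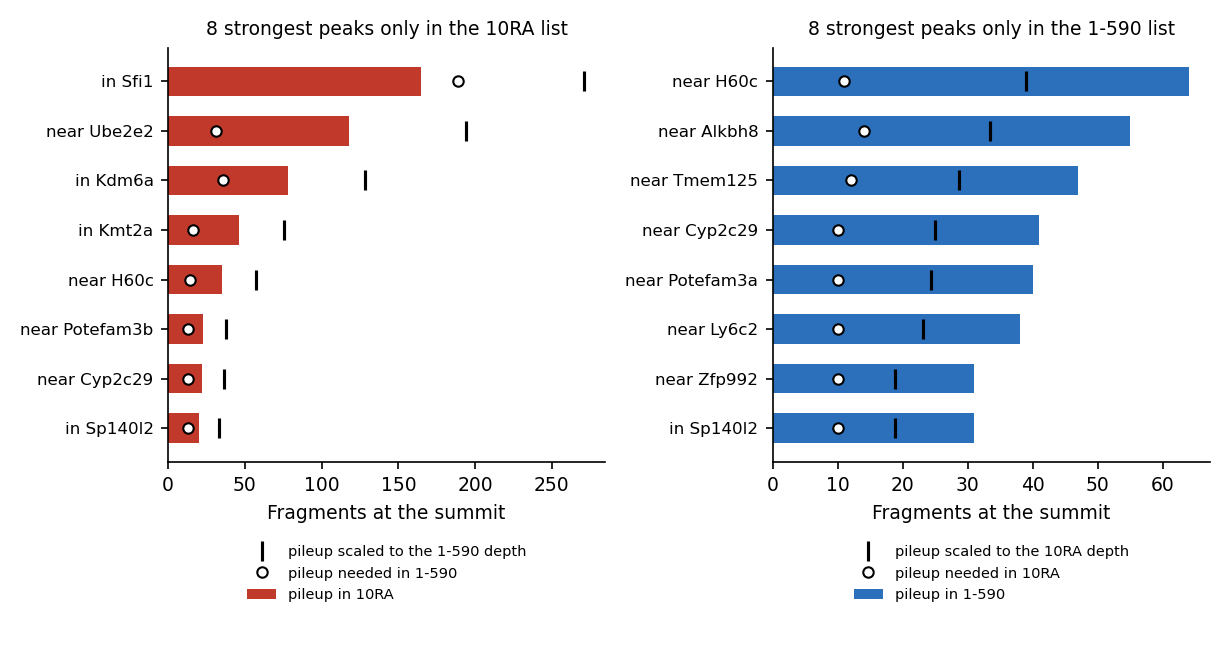
Fragments at the summit (x axes) of the 8 strongest private peaks with 10RA (left) and 1-590 (right), named by the gene that holds them or the nearest TSS; bars show the pileup in their own library, ticks the pileup scaled to the depth of the other library, and circles the pileup needed there for p of 0.001. Every tick stands to the right of its circle, as for Kmt2a, with 75.6 scaled fragments where 16 were needed. With 10RA this follows from scaling up to a deeper library.

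Promoter peaks were rare in both lists, and few genes had one in each. A gene was counted here where any base of a peak fell within its promoter, so the summit could lie outside it. Of 21757 protein-coding genes, 84 (0.386%) had a promoter peak with 10RA and none with 1-590, 217 (0.997%) had one with 1-590 and none with 10RA, and 15 (0.0689%) had one in both. Against the 1-590 list scaled to the 10RA depth, 106 genes had one only with 1-590. In 12 of the 15 genes (0.0552% of all genes) both peaks reached q of 0.05. Apart from Pgk1 these were Spata31e2, with 43 fragments at the summit with 10RA and 73 with 1-590, Sfi1 (230 and 414), Elobl (41 and 54), Tmem267 (25 and 43) and AY761185 (20 and 42). They also included Ugt1a1, which encodes a bilirubin-conjugating enzyme (37 with 10RA and 48 with 1-590), Gm8126 (17 and 26), Tcp10c (15 and 25), Gm21663 (14 and 27), and Nit1 with Pfdn2 under 1 peak (18 and 22). Sfi1 had a local background of 124 fragments with 10RA and 223 with 1-590. Where a promoter had several peaks these values are of the strongest in each list, and those at Ugt1a1 and Gm21663 did not overlap each other. At Gm21663 a weaker 10RA peak, chr5:26148672-26148980 with 13 fragments, did overlap the 1-590 peak, chr5:26148727-26148939.

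Among genes of methyltransferases and demethylases that work with MLL and UTX, the 10RA list had a promoter peak at Kmt2a. The 1-590 list had promoter peaks at Kdm6a and Kdm6b. These were 1 and 2 of 20 genes, against 0.455% of all genes with 10RA and 1.07% with 1-590. The 20 genes were chosen with earlier results of these data known, so the comparison with all genes does not test for an excess. Kdm6b, which encodes the related demethylase JMJD3, had 17 fragments at chr11:69303430-69303679 with a q above 0.05. Bap1 and Asxl1 had no peak in the gene in either list. Of 15 genes of the BAP1 complex and its partners, Mbd6 had an exon peak with 1-590 (16 fragments) and Mbd5 had intron peaks with 10RA (12 to 13 fragments), all with q above 0.05. Of 30 genes of Polycomb subunits none had a promoter or exon peak, and only Aebp2, a PRC2 accessory subunit, had a peak with q of 0.05 or less, in an intron with 1-590 (18 fragments).

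Peaks in genes of stem cells and blood lineages were mostly weak. Over all protein-coding genes, 6.44% had a peak in the gene with 10RA and 11% with 1-590, and 0.814% had an exon peak with 10RA and 2.01% with 1-590. None of 32 HSPC and leukaemia regulators had a promoter or exon peak in either list. With 10RA 2 of them (6.25%), Dnmt3a and Mecom, had an intron peak, and with 1-590 9 did (28.1%), Runx1, Meis1, Kit and Tet2 among them, all with q above 0.05. The 10RA share was thus near that of all genes and the 1-590 share above it. The median length of these genes was 29.8 kb, against 19.2 kb for all genes, and the part of length was not tested. No Hox gene of 39 had a peak in the gene with 10RA, against 6.44% of all genes. With 1-590 4 did (10.3%), near the 11% of all genes, and Hoxc5 and Hoxc6 were counted for the same peak. That peak lay at the promoter of Hoxc6 (15 fragments), and Hoxc12 had an exon peak with 1-590 (14 fragments), both with q above 0.05. Hoxa10 had an intron peak with 1-590 and q of 0.05 or less (18 fragments). Of 21 myeloid genes 1 (4.76%) had a peak in the gene with 10RA and 3 (14.3%) with 1-590. Lyz2, which encodes lysozyme, had an exon peak with 10RA (20 fragments at chr10:117113309-117114032) and none with 1-590. With 1-590, Fcgr3, an Fc receptor gene, had an intron peak (21 fragments), and Lyz2 and Fcgr3 had q of 0.05 or less. Ctsg had a promoter peak (16 fragments) and Irf8 an exon peak (15 fragments) with 1-590, both with q above 0.05. Of 17 erythroid and megakaryocyte genes 1 (5.88%), Ermap, had a promoter peak with 1-590 (15 fragments, q above 0.05), against 1.07% of all genes. None had a promoter peak with 10RA, and 1 (5.88%) had a peak in the gene in each list. Of 17 lymphoid genes none had a promoter peak with 10RA, and 2 (11.8%), Ebf1 and Rag2, had one with 1-590 (17 and 15 fragments), against 1.07% of all genes. Both had q above 0.05, and Ebf1 had intron peaks with 10RA (13 fragments) and 1-590 (18 fragments, with q of 0.05 or less). Of 14 stromal and endothelial genes none had a peak in the gene with 10RA and 2 (14.3%) had one with 1-590, of which Vcam1 had an exon peak with 1-590 (15 fragments). The peak lists measure no RNA, so the labelled cell type could not be checked against its markers.

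In a list of 8 genes whose promoters are used in vectors or that have processed copies, drawn up with these peaks known, Fth1, the ferritin heavy chain gene, had a promoter peak with 10RA (17 fragments at chr19:9960102-9960272). With 1-590, Tmsb4x and Eno1b had promoter peaks (22 and 20 fragments) and Actb an exon peak (19 fragments). Over the other 9 lists, 1 of 205 genes had a promoter peak with 10RA (0.488%) and 7 with 1-590 (3.41%), against 0.455% and 1.07% of all genes. The 10RA share was near that of all genes. All of the 7 but Kdm6a had promoter peaks with q above 0.05. These lists too were chosen with earlier results of these data known, so their shares are a description and do not test for an excess.

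Exon peaks were listed at 157 genes only with 10RA (0.722%), at 418 only with 1-590 (1.92%) and at 20 in both lists (0.0919%). Exon edges were compared on canonical transcripts, promoter exons included. Of 9 shared 10RA peaks with a summit in such an exon, 7 lay within it to 10 bases, and 1, at Kdm6a, began or ended within 10 bases of the exon's edge. Among private 10RA peaks 111 had a summit in such an exon, and 15 of them had an edge within 10 bases of the exon's edge. Among private 1-590 peaks 297 had one, and 30 had such an edge. Anywhere in the gene, 839 genes had a peak only with 10RA (3.86%), 1825 only with 1-590 (8.39%) and 563 in both (2.59%).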

How the data were processed

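ASXL1 ChIP-seq of c-Kit+ bone marrow cells was analysed from 1 narrowPeak list per condition. The members and the gene lists were chosen with earlier results of these data known. The submitters' processing notes name fastp 0.24.0, Bowtie2 2.5.4, SAMtools, Picard, MACS3 3.0.3 and the build mm39 (GRCm39), and the use of a control library is not given in the sources used here. The authors deposited, for each peak, a score, a fold (ratio) of the summit over its local background, and -log10 p-values and -log10 q-values. These are the authors' own values for each peak and served only to describe, rank and filter peaks within a list.

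Repeated intervals were counted once. The summit pileup and local background were recovered from the deposited fold and p, and came out whole to within 0.001 for 100% of peaks in both lists. To compare depths, pileups and backgrounds were multiplied by the ratio of the genome backgrounds. Summits were located with GENCODE vM39 (21757 protein-coding genes); promoters were bases within 2 kb of a canonical TSS. Wilson intervals for shares and exact Poisson intervals for pileups, both at 95%, cover counting error only. Placement shares are the mean share expected for intervals of the same lengths placed anywhere on the chromosomes compared. A peak was called multi-copy where its median 32-base word occurs more than once in the genome as assembled.

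Named were the 8 strongest peaks and the 8 strongest private peaks of each list by -log10 p, genes with a promoter peak of q of 0.05 or less in both lists, and members of the gene lists with a promoter or exon peak or a peak of such q. Bap1 and Asxl1 were always named. Pairs whose pileups stood apart after scaling and shared peaks listed in no other library were chosen after their values were seen. Alternatives were other thresholds, equal list lengths, other promoter widths, single-copy peaks and other overlap rules; scaling 1-590 to the 10RA depth, leaving out peaks of other libraries and a partner within 500 bases were chosen after seeing the data. The functions were tested on simulated data. Python 3.11.15, numpy 2.4.6, pandas 2.3.3, scipy 1.17.1, numba 0.67.0, matplotlib 3.10.9 and bedtools 2.31.1 were used.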

Additional observations from a re-analysis of the deposited data

Results flagged for a closer look

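Dividing the number of 10RA peaks by that of 1-590 peaks gave 0.548 for ASXL1 ChIP-seq and 1.36 for BAP1 ChIP-seq. These are counts as listed. After the 1-590 list was scaled to the 10RA depth the ASXL1 quotient was 0.981, and the BAP1 lists were not scaled for depth. With 1 library each, the difference between the ratios was not tested.

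Peaks were also listed on sequences outside chromosomes 1 to 19, X and Y, 76 with 10RA and 91 with 1-590. Of these, 67 with 10RA (88.2%, Wilson interval 79.0 to 93.6) and 63 with 1-590 (69.2%, 59.1 to 77.8) met a peak of the other list.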

How the results depend on the processing

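The share of peaks that met the other list depended most on the threshold. It was 30.2% with 10RA and 10.2% with 1-590 at q of 0.05 or less, 74.5% and 34.0% at q of 0.001 or less, and 28.8% and 28.2% in the first 500 peaks. Among single-copy peaks it was 2.68% with 10RA and 1.43% with 1-590, and among peaks listed in no other library 0.933% and 0.515%. With summits within 250 bases it was 4.10% and 2.25%, with peaks within 500 bases merged 4.36% and 2.25%, and over all sequences 6.31% and 3.33%. With both lists at the same number of peaks, 3.99% with 10RA and 3.88% with 1-590 were shared by fold, and 4.58% with 1-590 by -log10 p. Scaling 1-590 to the 10RA depth gave 4.47% of 1-590 peaks. The promoter share of private 10RA and private 1-590 summits was 0.666% and 1.06% for promoters of 1 kb, 6.04% and 7.31% for 5 kb, 4.91% and 6.06% with the TSS of every transcript, and 3.24% and 2.99% at q of 0.05 or less. That of shared summits was 2.20% for 1 kb, 14.1% for 5 kb and 12.8% with every TSS. Genome shares for these promoters were 1.56%, 7.44% and 7.02%. Genes with a promoter peak only with 10RA and only with 1-590 numbered 37 and 105 for 1 kb, 280 and 664 for 5 kb, and 10 and 36 at q of 0.05 or less. Genes with one only with 1-590 numbered 106 after scaling and 110 at the same number of peaks, and genes with one in both lists 29 for 5 kb. The cause of these shifts was not tested beyond what each setting changes by construction. With a partner allowed within 500 bases, 7 of the 8 strongest private peaks of each list stayed private. No paired analysis was possible because each condition had 1 library, and for the same reason no library could be left out.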
